A study of Mus musculus with 9 samples.

Results

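The genes described here encode the machinery that licenses, fires and copies DNA replication origins, from the origin recognition complex to chromatin assembly behind the fork. They form a list of gene names drawn up by the steps of replication, with earlier results of these data known. All 53 genes on the list were rows of the count table, which held 15552 genes, and all 53 were among the 11373 genes with enough counts to be tested. Positions are those of the gene annotation on the build GRCm38. The libraries came from MyC-CaP cells, a mouse prostate cancer line with an epithelial-like label. All 9 carry the label of treatment with neuregulin 1 (rNRG1, the recombinant protein, at 15 ng/mL), a ligand of the receptor tyrosine kinase HER3, given after the cells had been starved of serum and calcium for 6 to 12 h. RNA was taken at 0, 12 or 24 h after the ligand was added, with 3 biological replicates at each time, so the 0 h libraries were the starved cells before any exposure. No library kept in starvation medium without rNRG1 for 12 or 24 h was analysed here, so exposure to the ligand and time since plating and starvation cannot be told apart. The cells are a single line, and the p-values measure the spread between replicate wells labelled as biological replicates.

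DNA replication is prepared in G1. The origin recognition complex (ORC), CDC6 and CDT1 then load pairs of MCM2-7 rings onto DNA in an inactive form, a step called licensing. At the start of S phase the kinase CDC7-DBF4 and a set of assembly factors turn each ring into the active CMG helicase by adding CDC45 and GINS, after which polymerases alpha, epsilon and delta copy the strands with the help of the sliding clamp PCNA, its loader RFC and the single-strand binding protein RPA. Many of these genes are known targets of E2F transcription factors, which are held in check in resting cells and released when growth factors drive cells into the cycle.

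Total counts per library ran from 28467089 to 39239760, and the 53 genes together took 0.173% to 0.195% of the counts at 0 h, 0.229% to 0.244% at 12 h and 0.229% to 0.237% at 24 h. Levels are given below as CPM, the count divided by the library's total after TMM scaling, and changes as log2 fold change ± standard error. The 0 h replicate 1 library had the smallest total and stood apart among the starved libraries in the 53 genes. It was the lowest of the 3 for 41 of the 53 genes and the highest for 3. How often this held over all tested genes was not counted. The 12 h replicate 3 library also stood apart over all genes, with a chi-square per degree of freedom of 10.2 and 10.3 against the other 12 h libraries, which gave 4.34 between them. Without it 44 of the 53 genes rose at 12 h and 46 at 24 h, beside 44 and 44 with it: *Recql4* and *Gins3* were lost at 12 h and *Pold2* and *Pold3* gained. Of the epithelial markers, *Cldn3* was at a mean of 555 CPM and *Krt19* at 98.7 CPM at 0 h, whereas *Epcam* and *Cdh1*, which define epithelium, had at most 3 and 4 counts in any library. All 6 leukocyte markers and all 4 endothelial markers had at most 10 counts in any library, and of 6 fibroblast markers *Pdgfra* alone passed 17 counts, at 16.2 to 16.8 CPM in the means of the 3 times. Genes of the mitochondrial genome took at least 1.41% of the counts in each library at 0 h, 1.12% to 1.18% at 12 h and 1.21% to 1.36% at 24 h, and their part in the results was not tested. In bulk RNA, more cells in S phase and more RNA per cell cannot be told apart.

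To determine how the replication genes behaved after 12 h of rNRG1, each was compared with the starved cells in one edgeR quasi-likelihood fit over all tested genes, with a Benjamini-Hochberg adjusted p of at most 0.05 as the threshold. Of the 53 genes, 44 rose, 1 fell and 8 did not pass (DESeq2 called 45 higher and 1 lower), so that 83.0% of the list rose against 13.6% of all tested genes, and 1 gene of the list fell against 11.9% of all. The median log2 fold change was 0.51, a gain of 42.5%, while the median over all tested genes was -0.0028. The estimates ran from -0.18 for *Rpa1* to 1.00 for *Dscc1*, and 51 of 53 were above 0, against 5582 of all 11373 tested genes. Most of the changes were of moderate size: 17 genes rose by 1.5-fold or more, against 1.34% of all tested genes, and none fell by that much, against 0.958% of all. That count rests on the 0 h replicate 1 library, since without it 8 genes were past 1.5-fold, namely *Cdc6*, *Mcm3*, *Ticrr*, *Prim1*, *Pcna*, *Dscc1*, *Fen1* and *Clspn*. When the test asked for a fold change beyond 1.5 (edgeR's glmTreat), 0 of the 53 passed, against 0.0352% of all tested genes in either direction. In 44 genes all 3 libraries at 12 h lay above all 3 at 0 h, and in 1 gene they lay below, against 19.9% and 18.5% of all tested genes.

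At 24 h the same comparison with the starved cells gave 44 genes that rose, 0 that fell and 9 that did not pass, against 9.67% of all tested genes that rose and 7.76% that fell. DESeq2 also called 44 higher and 0 lower, and at an unadjusted p below 0.05 edgeR gave 47 higher and 2 lower, *Orc5* and *Rpa1*, against 15.1% and 15% of all tested genes. The median log2 fold change was 0.50, or 41.3%, and the estimates ran from -0.13 for *Rpa1* to 0.91 for *Dscc1*. Past 1.5-fold there were 14 genes, against 1.68% of all tested genes, and none in the other direction, against 0.589%. Without 0 h replicate 1 only *Dscc1*, *Fen1* and *Clspn* were still past 1.5-fold, and without 0 h replicate 3 the count was 20. With the test for a change beyond 1.5-fold, 0 of the 53 passed, against 0.0528% of all. The 3 libraries at 24 h were above all 3 at 0 h in 46 genes and below in 2, against 17.6% and 17.9% of all tested genes. The 12 h and 24 h comparisons share their 0 h libraries and are therefore not independent of each other.

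**Figure D1:**
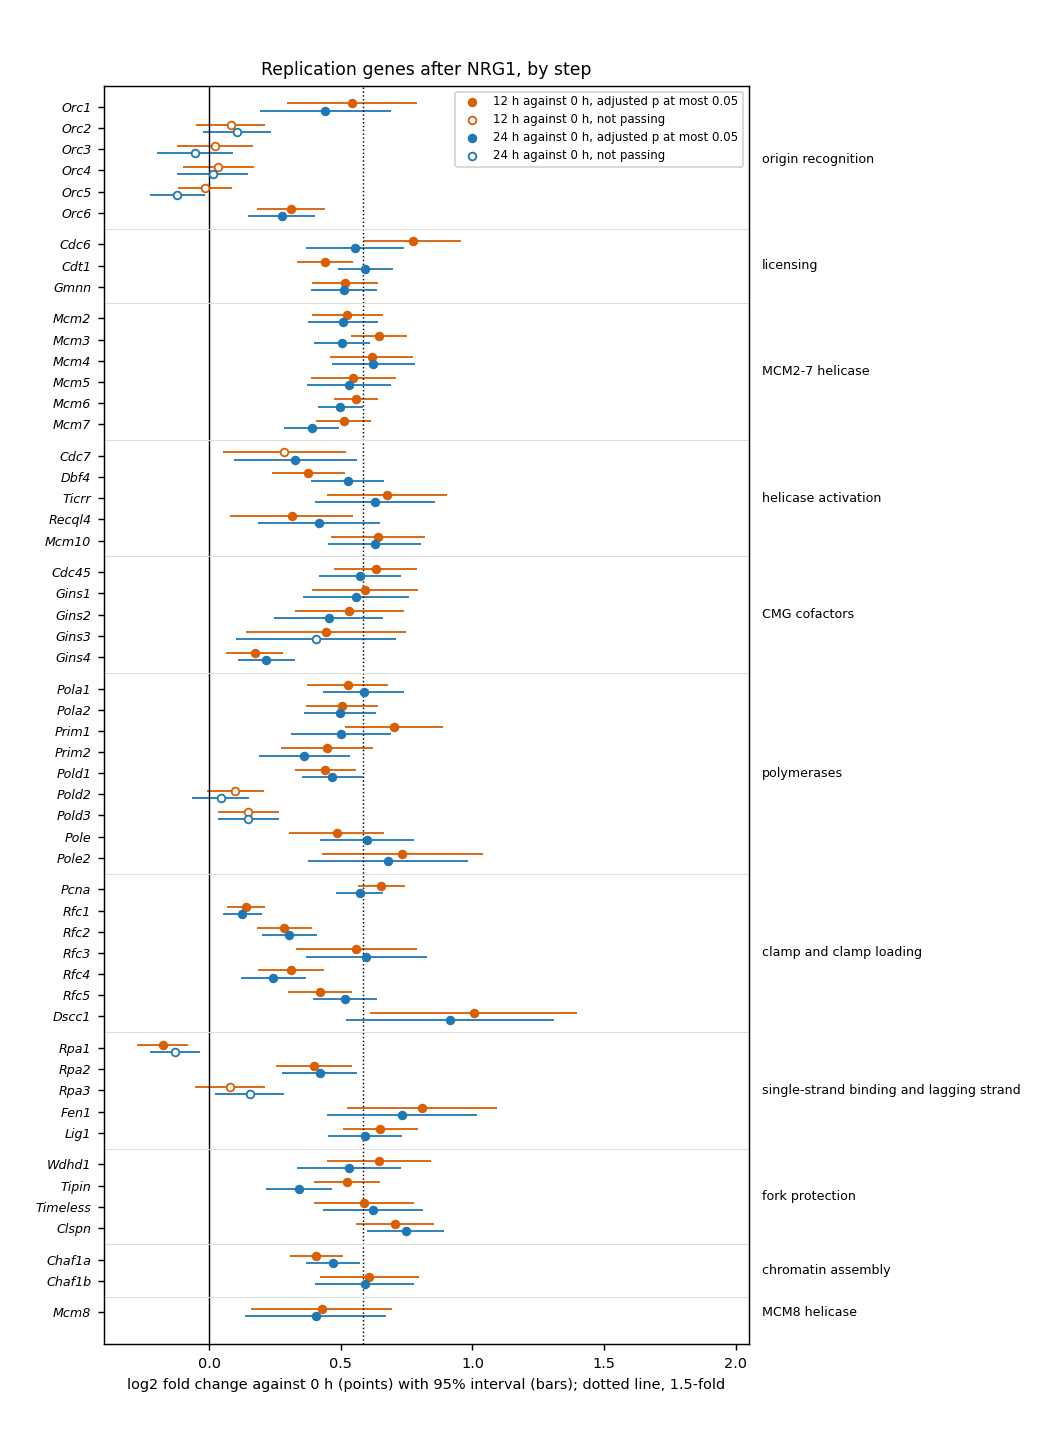
The plot shows the log2 fold change against 0 h on the x axis for each of the 53 genes, grouped by step of replication on the y axis, at 12 h (orange) and 24 h (blue); bars are 95% intervals, filled points had an adjusted p of at most 0.05 and the dotted line marks 1.5-fold. The medians are 0.51 at 12 h and 0.50 at 24 h, while *Orc2* to *Orc5*, *Pold2*, *Pold3*, *Rpa1* and *Rpa3* passed the test as higher at neither time.

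**Figure D2:**
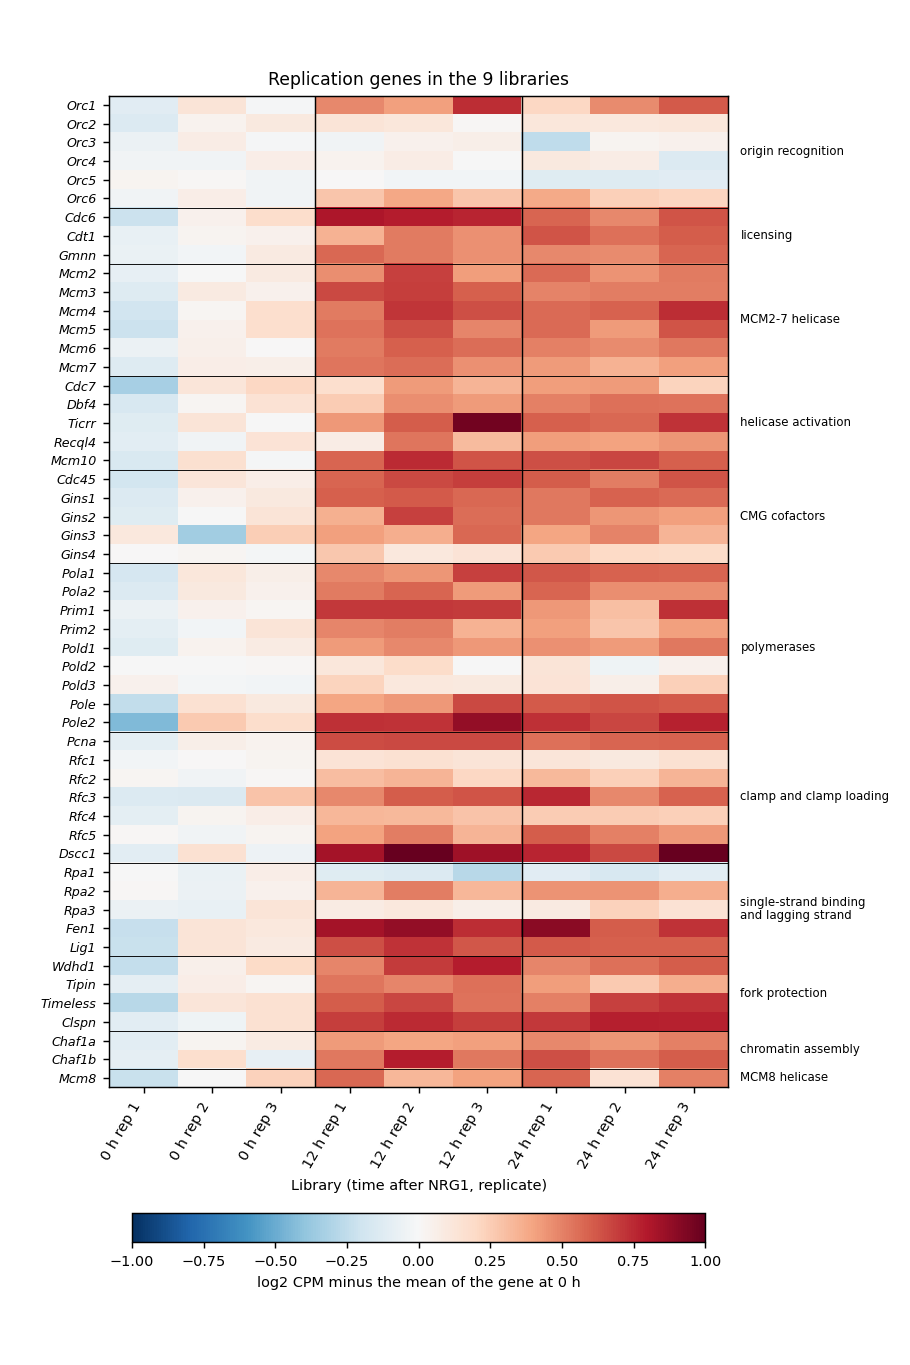
The heat map gives log2 CPM minus the gene's mean at 0 h for each of the 53 genes (rows) in each of the 9 libraries (columns); red is higher than the 0 h mean, blue is lower, and values past 1 are drawn at the limit of the scale. Averaged over the 53 genes the value was -0.11 to 0.076 in the 0 h libraries, 0.42 to 0.49 at 12 h and 0.40 to 0.46 at 24 h.

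Among the 6 ORC genes, *Orc1* and *Orc6* rose at both times, and *Orc2*, *Orc3*, *Orc4* and *Orc5* passed the test at neither. *Orc1*, which encodes the largest subunit and is the one whose protein is removed and remade with each cycle in mammalian cells, was at 6.74, 7.97 and 7.23 CPM at 0 h, 10.2, 9.71 and 12.2 at 12 h and 8.42, 10.2 and 11.2 at 24 h. Every library at 12 or 24 h was above the highest at 0 h. The log2 fold change was 0.54 ± 0.12 at 12 h (adjusted p = 0.00263) and 0.44 ± 0.12 at 24 h (adjusted p = 0.0153), and the 24 h call was lost without 0 h replicate 1 (adjusted p = 0.0624) or without 24 h replicate 3 (adjusted p = 0.0957). *Orc6*, the smallest subunit, was at 23.99, 25.6 and 23.96 CPM at 0 h, 29.7, 32.03 and 29.7 at 12 h and 31.96, 28.9 and 28.4 at 24 h. Its groups did not overlap either, with changes of 0.31 ± 0.061 (adjusted p = 0.00125) and 0.27 ± 0.061 (adjusted p = 0.00453).

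The other ORC subunits had changes whose intervals held 0 at 12 h. Of these 4 intervals, the one of *Orc2* reached highest, at -0.049 to 0.21. It leaves out the 0.54 of *Orc1* but overlaps the interval of *Orc6*, 0.18 to 0.44. All 3 libraries of *Orc2* at 24 h were above all at 0 h, but the change of 0.11 ± 0.061 did not pass (adjusted p = 0.270). *Orc5* was at 31.6, 31.3 and 30.2 CPM at 0 h, 31.1, 30.5 and 30.4 at 12 h and 28.6, 28.4 and 28.7 at 24 h. All 3 libraries at 24 h were below all at 0 h, but the change of -0.12 ± 0.049 did not pass (adjusted p = 0.101). Levels per kilobase divide by the length of all annotated exons of a gene, so they also depend on annotated exons that these cells may not use. In this measure *Orc1* was the lowest of the 6 subunits at 0 h, at 2.10 ± 0.178 CPM. *Orc6* was the highest at 9.94 ± 0.391 CPM, with *Orc2* to *Orc5* between them at 3.69 to 7.07 CPM.

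The 3 licensing genes all rose at both times. *Cdc6* (chr11:98907801-98923940, plus strand), the ATPase that joins ORC at the origin to receive the MCM rings, was at 9.05, 10.9 and 11.9 CPM at 0 h, 18.5, 18.2 and 17.9 at 12 h and 15.8, 14.7 and 16.3 at 24 h. All libraries at 12 h were above those at 24 h, and all of these above the 0 h libraries. Its change of 0.77 ± 0.087 at 12 h (adjusted p = 9.16e-06) was 1.71-fold, and at 24 h it was 0.55 ± 0.088 (adjusted p = 0.000284). *Cdt1*, whose protein escorts MCM2-7 to the origin, was at 46.5, 50.01 and 50.4 CPM at 0 h, 62.3, 70.1 and 67.4 at 12 h and 75.6, 71.9 and 74.4 at 24 h. Here each 24 h library was above each at 12 h, and the changes against 0 h were 0.44 ± 0.050 (adjusted p = 1.04e-05) and 0.59 ± 0.050 (adjusted p = 6.83e-07). Between 12 h and 24 h neither *Cdc6* nor *Cdt1* passed the test (adjusted p = 0.144 and 0.0843). *Gmnn*, which encodes geminin, the protein that binds CDT1 and blocks relicensing, rose by 0.52 ± 0.059 at 12 h (adjusted p = 1.04e-05) and by 0.51 ± 0.059 at 24 h (adjusted p = 1.20e-05). The inhibitor and the loaders were thus higher in the same libraries.

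All 6 genes of the MCM2-7 ring rose at 12 h and at 24 h, within a narrow range of 0.51 to 0.65 at the first time and 0.39 to 0.62 at the second. *Mcm3* (chr1:20802968-20820312, minus strand) had the largest change of the 6 at 12 h, and its level was 53.9, 62.7 and 60.99 CPM at 0 h, 93.6, 95.6 and 89.3 at 12 h and 83.5, 84.5 and 84.4 at 24 h. Each time was separate from the others, highest at 12 h, but the difference between 12 h and 24 h did not pass (adjusted p = 0.110). The change against 0 h was 0.65 ± 0.050 at 12 h (adjusted p = 3.26e-07) and 0.50 ± 0.051 at 24 h (adjusted p = 3.25e-06). *Mcm4* was at 34.2, 39.7 and 43.9 CPM at 0 h, 55.95, 64.1 and 61.2 at 12 h and 57.8, 58.8 and 65.1 at 24 h, and its changes of 0.62 ± 0.075 and 0.62 ± 0.074 (adjusted p = 1.82e-05 and 1.77e-05) made it the highest of the ring at 24 h. *Mcm7*, a gene whose introns carry a well-known microRNA cluster, was at 85.2, 97.8 and 97.2 CPM at 0 h, 135, 137 and 128 at 12 h and 125, 119 and 124 at 24 h. It had the smallest change of the ring at both times, 0.51 ± 0.049 (adjusted p = 2.35e-06) and 0.39 ± 0.049 (adjusted p = 3.13e-05).

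The remaining ring subunits moved by like amounts. *Mcm2*, whose protein is a target of the CDC7 kinase, rose by 0.52 ± 0.064 at 12 h (adjusted p = 1.83e-05) and by 0.51 ± 0.063 at 24 h (adjusted p = 2.71e-05). *Mcm5* rose by 0.55 ± 0.076 and 0.53 ± 0.076 (adjusted p = 6.04e-05 and 0.000103). *Mcm6* rose by 0.56 ± 0.040 and 0.50 ± 0.040 (adjusted p = 1.44e-07 and 4.42e-07), with the smallest standard error of the ring. The ring holds 1 copy of each subunit. Per kilobase of annotated exon at 0 h the values ran from 6.63 ± 0.400 CPM for *Mcm2* to 21.1 ± 1.60 CPM for *Mcm7*, with annotated lengths of 6956 and 4426 bp. Whether the transcripts themselves differed in level was not tested. *Mcm8*, a relative of the ring subunits that works with MCM9 in recombination, was at 6.49, 7.58 and 8.95 CPM at 0 h, 11.4, 9.62 and 10.05 at 12 h and 11.4, 8.40 and 10.8 at 24 h. The 24 h libraries overlapped those at 0 h, and the changes of 0.43 ± 0.13 (adjusted p = 0.0202) and 0.40 ± 0.13 (adjusted p = 0.0356) depended on single libraries. The 12 h call was lost without 0 h replicate 1 or 2 or 12 h replicate 1 (adjusted p from 0.0578 to 0.0986), and the 24 h call without 0 h replicate 1 or 2 or 24 h replicate 1 or 3 (adjusted p from 0.0958 to 0.146).

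Of the 5 genes that turn the loaded ring into a working helicase, 4 rose at 12 h and all 5 at 24 h. The kinase gene *Cdc7* was at 11.6, 15.99 and 16.96 CPM at 0 h, 16.5, 19.7 and 18.6 at 12 h and 19.6, 19.8 and 17.1 at 24 h. Its 12 h libraries overlapped those at 0 h, and it changed by 0.28 ± 0.11 at 12 h without passing (adjusted p = 0.0702), whereas it passed with DESeq2 (adjusted p = 0.0392), with genes of low count kept (adjusted p = 0.00389), with the replicate block (adjusted p = 0.0404) and without 0 h replicate 3 (adjusted p = 0.0289). At 24 h it rose by 0.33 ± 0.11 (adjusted p = 0.0493), a call at the threshold that was lost without 0 h replicate 1 or 2, 12 h replicate 1 or 24 h replicate 1 or 2 (adjusted p from 0.0556 to 0.193) and with scaling to total counts (adjusted p = 0.0510). *Dbf4*, its activating subunit, was at 42.1, 47.7 and 51.9 CPM at 0 h, 56.2, 65.1 and 63.1 at 12 h and 66.6, 69.00 and 68.6 at 24 h. The 3 times did not overlap, with changes against 0 h of 0.38 ± 0.066 (adjusted p = 0.000525) and 0.53 ± 0.066 (adjusted p = 2.71e-05). Between 12 h and 24 h the change of *Dbf4* did not pass (adjusted p = 0.204).

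*Ticrr* encodes treslin, which with TOPBP1 brings CDC45 to the ring, and was at 13.9, 16.5 and 15.1 CPM at 0 h, 20.4, 23.1 and 29.7 at 12 h and 22.9, 22.6 and 25.1 at 24 h. It had the largest change of the 5 at 12 h, 0.68 ± 0.11 (adjusted p = 0.000226), and 0.63 ± 0.11 at 24 h (adjusted p = 0.000583). *Mcm10*, needed for the assembled helicase to start unwinding, rose by 0.64 ± 0.084 (adjusted p = 3.43e-05) and 0.63 ± 0.083 (adjusted p = 4.99e-05). *Recql4*, a RecQ family helicase gene, was at 7.06, 7.42 and 8.34 CPM at 0 h, 7.99, 11.03 and 9.46 at 12 h and 10.2, 10.02 and 10.3 at 24 h. The 12 h libraries overlapped those at 0 h, and the rise of 0.31 ± 0.11 at 12 h was at the threshold (adjusted p = 0.0490) and was lost without any one of 7 of the 9 libraries (adjusted p from 0.0545 to 0.2504), with scaling to total counts (adjusted p = 0.0622) and with 0 h and 12 h alone fitted (adjusted p = 0.0821). At 24 h it was 0.42 ± 0.11 (adjusted p = 0.0147), lost without 0 h replicate 1 or 2 or 24 h replicate 3 (adjusted p from 0.0508 to 0.0590).

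*Cdc45* and the 4 GINS genes, which complete the CMG helicase, all rose at 12 h, and 4 of the 5 rose at 24 h. *Cdc45* was at 13.9, 17.3 and 16.6 CPM at 0 h, 23.8, 25.02 and 25.6 at 12 h and 24.2, 22.7 and 24.5 at 24 h. Its later libraries were all above the starved ones, with changes of 0.63 ± 0.075 (adjusted p = 1.41e-05) and 0.57 ± 0.074 (adjusted p = 4.03e-05), the largest of the 5 at both times. *Gins1* rose by 0.59 ± 0.095 (adjusted p = 0.000239) and 0.56 ± 0.095 (adjusted p = 0.000548). *Gins2* rose by 0.53 ± 0.098 (adjusted p = 0.000769) and 0.45 ± 0.098 (adjusted p = 0.00371), but 67.3% of its exonic bases lie under *Gse1* on the other strand.

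The other GINS genes were the most and the least abundant of the complex. *Gins4* was at 39.4, 39.6 and 38.6 CPM at 0 h, 47.3, 42.2 and 42.97 at 12 h and 47.1, 44.98 and 44.6 at 24 h, and it had the smallest change of the 5, 0.17 ± 0.051 at 12 h (adjusted p = 0.0195) and 0.22 ± 0.051 at 24 h (adjusted p = 0.00706). Its 12 h call was lost without 0 h replicate 3 (adjusted p = 0.0542) or 12 h replicate 1 (adjusted p = 0.109). *Gins3* was at 4.08, 2.97 and 4.50 CPM at 0 h, 5.06, 4.89 and 5.68 at 12 h and 5.01, 5.38 and 4.81 at 24 h. The 12 h rise of 0.44 ± 0.14 (adjusted p = 0.0321) was lost without 0 h replicate 2, 12 h replicate 1 or 12 h replicate 3 (adjusted p from 0.0581 to 0.152) and with 0 h and 12 h alone fitted (adjusted p = 0.0549). The 24 h change of 0.40 ± 0.14 did not pass (adjusted p = 0.0636), but did with genes of low count kept or without 0 h replicate 3 or 12 h replicate 3 (adjusted p from 0.0261 to 0.0452). GINS holds its 4 subunits in equal number. The level per kilobase of annotated exon at 0 h ran from 1.42 ± 0.292 CPM for *Gins3* to 29.04 ± 0.405 CPM for *Gins4*, with annotated lengths of 2709 and 1349 bp.

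Among the 9 polymerase genes, 7 rose at 12 h and the same number at 24 h, and the 2 that did not pass were *Pold2* and *Pold3* at both times. *Pola1*, the catalytic subunit of the polymerase that starts each new strand, was at 22.7, 27.7 and 26.6 CPM at 0 h, 35.7, 34.7 and 41.1 at 12 h and 39.3, 38.5 and 38.3 at 24 h. All later libraries were above all at 0 h, with changes of 0.53 ± 0.073 (adjusted p = 5.83e-05) and 0.59 ± 0.072 (adjusted p = 2.44e-05). *Prim1*, the subunit that lays down the RNA primer, was at 14.2, 15.2 and 14.99 CPM at 0 h, 24.2, 24.2 and 23.98 at 12 h and 19.9, 18.2 and 24.5 at 24 h. The 12 h libraries were close together, while the 24 h libraries spread from 18.2 to 24.5, and the changes were 0.70 ± 0.088 (adjusted p = 2.48e-05) and 0.50 ± 0.089 (adjusted p = 0.000800). *Pola2* and *Prim2*, the accessory subunits of the same complex, had changes of 0.36 to 0.50 over both times.

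For the leading-strand polymerase epsilon, both genes on the list rose at both times. For the lagging-strand polymerase delta, *Pold1* rose, while *Pold2* and *Pold3* did not pass. The smaller subunits *Pole3*, *Pole4* and *Pold4* were among the other replication genes counted below. They changed by 0.16, 0.14 and 0.15 at 12 h and by 0.12, 0.14 and 0.27 at 24 h. Of these changes only that of *Pole3* at 12 h passed (adjusted p = 0.0253). *Pole*, the catalytic subunit of epsilon, was at 22.1, 29.2 and 28.1 CPM at 0 h, 34.6, 35.5 and 41.7 at 12 h and 40.2, 40.6 and 40.2 at 24 h, and it rose by 0.48 ± 0.085 (adjusted p = 0.000554) and 0.60 ± 0.085 (adjusted p = 9.30e-05). *Pole2*, its second subunit, was at 2.70, 4.45 and 4.18 CPM at 0 h, 6.17, 6.11 and 6.85 at 12 h and 6.16, 5.89 and 6.34 at 24 h. It had the largest changes of the 9 polymerase genes, 0.73 ± 0.14 (adjusted p = 0.00129) and 0.68 ± 0.14 (adjusted p = 0.00335), and the lowest of its 0 h values was in replicate 1. For delta, *Pold1*, the catalytic subunit, rose by 0.44 ± 0.055 (adjusted p = 2.38e-05) and 0.47 ± 0.055 (adjusted p = 1.61e-05). *Pold2* was at 86.1, 85.96 and 87.01 CPM at 0 h, 93.5, 97.96 and 86.04 at 12 h and 94.3, 83.6 and 89.1 at 24 h, with overlapping groups and changes of 0.099 ± 0.051 and 0.043 ± 0.051 that did not pass (adjusted p = 0.167 and 0.623). Without 12 h replicate 3 the 12 h change of *Pold2* passed (0.16, adjusted p = 0.0202), and *Pold3* passed at both times without that library, without 24 h replicate 2 or with genes of low count kept (adjusted p from 0.0308 to 0.0468). The 95% interval for *Pold2* at 12 h was -0.0077 to 0.21 and that for *Pold1* was 0.32 to 0.56, and the difference between these subunits was not itself tested. Per kilobase of annotated exon *Pold2* was also the higher, at 45.5 ± 0.304 CPM at 0 h against 6.36 ± 0.458 CPM for *Pold1*.

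The sliding clamp, its loader and *Dscc1* made up 7 genes, all of which rose at both times. *Pcna* (chr2:132249162-132253314, minus strand), the ring that tethers polymerases to DNA, was at 73.1, 81.5 and 80.1 CPM at 0 h, 123, 123 and 123 at 12 h and 114, 117 and 118 at 24 h. The replicates were tight and the 3 times did not overlap, with changes against 0 h of 0.65 ± 0.042 at 12 h (adjusted p = 1.44e-07) and 0.57 ± 0.042 at 24 h (adjusted p = 2.43e-07). Between 12 h and 24 h the change of *Pcna* did not pass. *Dscc1* (chr15:55076099-55090491, minus strand), a subunit of the alternative clamp loader built on CTF18, was at 1.85, 2.21 and 1.92 CPM at 0 h, 3.58, 4.89 and 3.62 at 12 h and 3.41, 3.17 and 4.66 at 24 h. Its change was the largest of the 53 genes at both times, 1.00 ± 0.19 or 2.01-fold at 12 h (adjusted p = 0.000828) and 0.91 ± 0.19 at 24 h (adjusted p = 0.00247), from the lowest level per kilobase of exon of the 53, 0.449 ± 0.0436 CPM at 0 h, and with a 95% interval at 12 h of 0.61 to 1.40.

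The 5 subunits of the main clamp loader did not move by one amount. *Rfc3* was at 8.66, 8.63 and 11.6 CPM at 0 h, 13.4, 14.6 and 14.8 at 12 h and 16.1, 13.3 and 14.4 at 24 h and rose by 0.56 ± 0.11 (adjusted p = 0.00126) and 0.60 ± 0.11 (adjusted p = 0.000984), the most of the 5. *Rfc1*, the large subunit, was at 127, 129 and 132 CPM at 0 h, 142, 144 and 141 at 12 h and 141, 139 and 144 at 24 h. It rose by the least, 0.14 ± 0.035 at 12 h (adjusted p = 0.00733) and 0.13 ± 0.035 at 24 h (adjusted p = 0.0190), and its 24 h call was lost without 0 h replicate 1, 24 h replicate 1 or 24 h replicate 3 (adjusted p from 0.0534 to 0.0839). The intervals at 12 h, 0.066 to 0.21 for *Rfc1* and 0.33 to 0.79 for *Rfc3*, did not overlap. *Rfc2*, *Rfc4* and *Rfc5* lay between them, at 0.29 to 0.42 at 12 h and 0.24 to 0.52 at 24 h.

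The genes of the single-strand binding protein RPA were mixed, with 1 subunit gene higher, 1 lower and 1 not passing at 12 h. *Rpa1* (chr11:75298166-75348324, minus strand), the large DNA-binding subunit, was at 274, 262 and 286 CPM at 0 h, 252, 248.8 and 225 at 12 h and 253, 245 and 254 at 24 h. Of the 53 genes it had the highest level per kilobase of annotated exon at 0 h (49.1 ± 2.22 CPM). Every library at 12 and 24 h was below every library at 0 h. It was the 1 gene of the list that fell at 12 h, by 0.18 ± 0.045 on the log2 scale (adjusted p = 0.00800), and the call was lost without 0 h replicate 3 (adjusted p = 0.0669). At 24 h its change was -0.13 ± 0.045 (adjusted p = 0.0589), which passed when genes with low counts were kept (adjusted p = 0.0239), when 0 h and 24 h alone were fitted (adjusted p = 0.0275), without 0 h replicate 2 (adjusted p = 0.0483) or without 12 h replicate 3 (adjusted p = 0.0217).

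*Rpa2*, the subunit phosphorylated in the cycle and after damage, was at 16.4, 15.5 and 16.7 CPM at 0 h, 20.5, 23.1 and 20.4 at 12 h and 22.1, 22.1 and 20.8 at 24 h. It rose by 0.40 ± 0.068 at 12 h (adjusted p = 0.000399) and by 0.42 ± 0.067 at 24 h (adjusted p = 0.000332), with no overlap of the later libraries with those at 0 h. *Rpa3* was at 25.5, 25.1 and 28.98 CPM at 0 h, 28.1, 28.5 and 27.6 at 12 h and 28.2, 31.02 and 29.3 at 24 h, and its changes of 0.079 ± 0.063 and 0.15 ± 0.062 did not pass (adjusted p = 0.390 and 0.103), although the 24 h change passed without 0 h replicate 3 (adjusted p = 0.0206). For the enzymes that finish Okazaki fragments, *Lig1*, the ligase, was at 37.4, 47.8 and 46.6 CPM at 0 h, 68.4, 72.1 and 67.1 at 12 h and 66.8, 66.2 and 66.1 at 24 h. It rose by 0.65 ± 0.067 (adjusted p = 4.26e-06) and 0.59 ± 0.067 (adjusted p = 1.03e-05). *Fen1*, the flap endonuclease, was at 2.52, 3.26 and 3.19 CPM at 0 h, 5.34, 5.53 and 4.99 at 12 h and 5.60, 4.55 and 4.94 at 24 h, and it rose by 0.81 ± 0.13 at 12 h (adjusted p = 0.000318) and 0.73 ± 0.13 at 24 h (adjusted p = 0.00103). These counts are uncertain, because 84.2% of the exonic bases of *Fen1* are shared with *Tmem258* and *Gm10143* on the opposite strand.

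**Figure D3:**
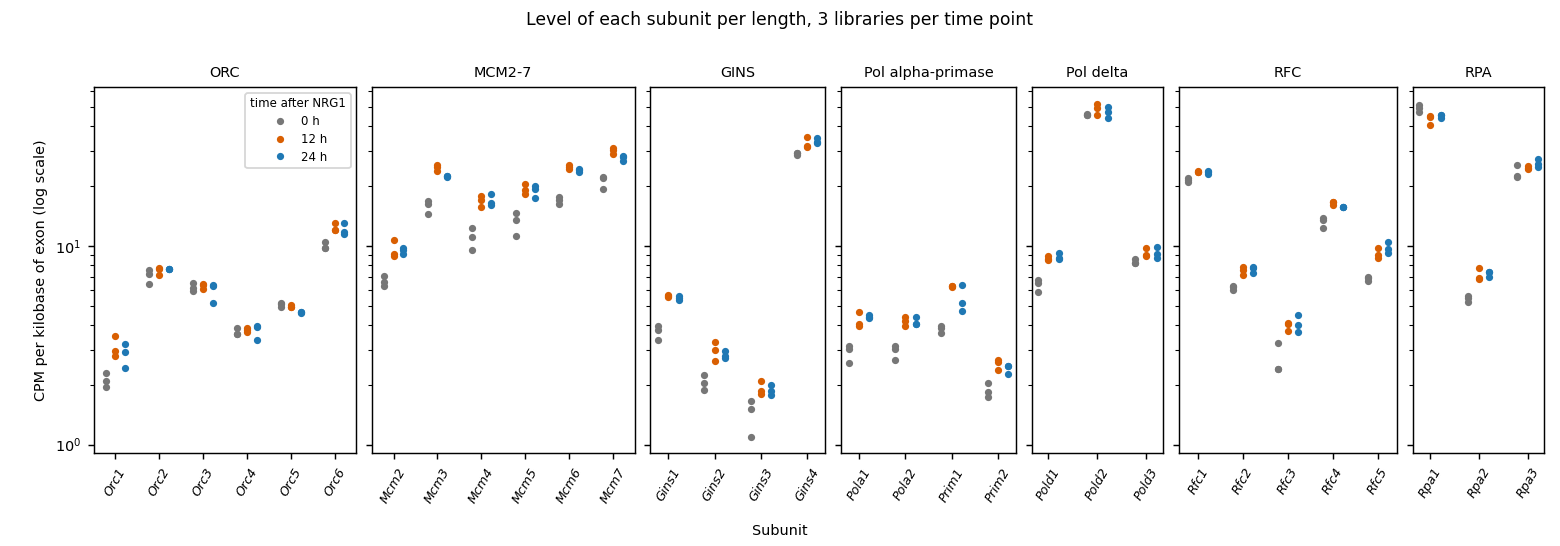
The dots give CPM per kilobase of exon (y axis, log scale) for each subunit of 7 complexes in each of the 3 libraries at 0 h (grey), 12 h (orange) and 24 h (blue). Within ORC, polymerase delta and RPA some subunits rose, while *Orc2* to *Orc5*, *Pold2*, *Pold3*, *Rpa1* and *Rpa3* passed the test as higher at neither time. Subunits of one complex differed in this measure, which depends on the annotated exon length, as *Gins4* and *Pold2* stood above their partners.

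The 4 genes for fork protection rose at both times. *Clspn* (chr4:126556935-126593903, plus strand) encodes claspin, which carries the checkpoint signal at the fork and helps set its speed, and was at 12.8, 13.4 and 15.3 CPM at 0 h, 22.3, 23.1 and 22.3 at 12 h and 22.5, 23.6 and 23.5 at 24 h. The libraries at 12 h and 24 h were tightly grouped and well above those at 0 h, with changes of 0.71 ± 0.070 (adjusted p = 3.16e-06) and 0.75 ± 0.070 (adjusted p = 1.52e-06). *Tipin*, the partner of TIMELESS, was at 21.7, 24.3 and 23.4 CPM at 0 h, 33.5, 32.5 and 33.9 at 12 h and 30.8, 27.6 and 29.7 at 24 h. Its mean was highest at 12 h, with changes against 0 h of 0.52 ± 0.059 (adjusted p = 9.69e-06) and 0.34 ± 0.059 (adjusted p = 0.000660). Between 12 h and 24 h the change of *Tipin* did not pass. *Timeless* itself changed by 0.59 and 0.62, and *Wdhd1*, which ties polymerase alpha to the helicase, by 0.64 and 0.53, all with adjusted p at or below 0.000703.

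Both genes of chromatin assembly factor 1, which places histones on new DNA, also rose. *Chaf1b*, the middle subunit, was at 11.3, 13.5 and 11.4 CPM at 0 h, 17.3, 20.8 and 17.3 at 12 h and 18.8, 17.6 and 18.3 at 24 h. The later libraries were all above those at 0 h, with changes of 0.61 ± 0.089 (adjusted p = 0.000102) and 0.59 ± 0.089 (adjusted p = 0.000165). *Chaf1a*, the large subunit, rose by 0.41 ± 0.048 (adjusted p = 1.41e-05) and 0.47 ± 0.048 (adjusted p = 3.46e-06), with 52.5% of its exonic bases also covered by *Ubxn6* on the other strand. In all, 9 of the 53 genes shared over 10% of their exonic bases with another gene: *Fen1*, *Gins2*, *Chaf1a*, *Orc2*, *Rfc2*, *Rfc4*, *Mcm7*, *Orc1* and *Rfc5*. Whether reads were counted by strand was not given in the sources used here. Among the other 44 genes, 36 rose at 12 h and 36 at 24 h, with median changes of 0.52 and 0.51.

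To determine whether the genes moved further between the later times, 24 h was compared with 12 h in the same fit. None of the 53 genes passed in either direction, against 1.97% of all tested genes higher and 3.06% lower, and DESeq2 called none. With the added demand for 1.5-fold the background was 0.202% higher and 0.0879% lower, and the test for a change beyond 1.5-fold called 0 genes of all those tested. At an unadjusted p below 0.05 edgeR gave 2 higher, *Cdt1* and *Dbf4*, and 6 lower, *Orc5*, *Cdc6*, *Mcm3*, *Mcm7*, *Prim1* and *Tipin*, against 9.41% and 10.7% of all tested genes. The median change was -0.018 and the estimates ran from -0.22 for *Cdc6* to 0.15 for *Cdt1*. The smallest adjusted p values belonged to *Tipin*, with a change of -0.18 ± 0.058 (adjusted p = 0.0808), to *Cdt1* at 0.15 ± 0.049 (adjusted p = 0.0843) and to *Mcm3* at -0.14 ± 0.049 (adjusted p = 0.110). *Cdt1* passed without 12 h replicate 2 (adjusted p = 0.0451), and *Mcm3* without 0 h replicate 1 (adjusted p = 0.0424) or 12 h replicate 3 (adjusted p = 0.0409). *Prim1* was called lower without 24 h replicate 3, its highest library at 24 h, and with genes of low count kept *Cdt1* and *Dbf4* were called higher and *Mcm3* lower. Without any overlap of libraries, *Cdt1*, *Dbf4* and *Chaf1a* were higher at 24 h and *Orc5*, *Cdc6*, *Mcm3*, *Mcm7*, *Pcna*, *Rfc4*, *Lig1* and *Tipin* were lower. These were 3 and 8 of the 53 genes, against 11.4% and 13.6% of all tested genes. Here and at an unadjusted p below 0.05, genes lower at 24 h were about as frequent as among all tested genes. Genes higher at 24 h were less frequent. The mean was highest at 12 h in 32 genes, at 24 h in 19 and at 0 h in 2, *Orc5* and *Rpa1*. The shares over all tested genes were not counted, and as none of the 53 passed between 12 h and 24 h, these counts set no peak time.

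For comparison, 33 further genes with roles in replication and 24 genes of mitosis were counted in the same fits. Of the other replication genes, 20 rose and 0 fell at 12 h with a median change of 0.22, against 13.6% and 11.9% of all tested genes. At 24 h 17 rose and 0 fell with a median of 0.27, against 9.67% and 7.76%. At an unadjusted p below 0.05 in either direction there were 4192 of all 11373 tested genes at 12 h and 3429 at 24 h. The same threshold gave 24 and 23 of the 33 other replication genes. The 3 with the largest change at 12 h were *Lrr1*, a subunit of the ligase that removes the helicase at the end of replication (0.86 ± 0.21, adjusted p = 0.00671), *Pclaf*, which binds PCNA (0.69 ± 0.055, adjusted p = 3.81e-07) and *Dtl*, the receptor by which CDT1 is degraded (0.62 ± 0.077, adjusted p = 2.04e-05). At 24 h they were *Lrr1* (0.90 ± 0.21, adjusted p = 0.00698), the histone chaperone gene *Asf1b* (0.68 ± 0.099, adjusted p = 0.000131) and *Pclaf* (0.67 ± 0.055, adjusted p = 6.05e-07).

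Of the 24 mitosis genes, 23 rose at 12 h with a median change of 0.47, beside 0.51 for the 53 replication genes. All 24 rose at 24 h with a median of 0.59, beside 0.50. Of all tested genes 13.6% rose at 12 h and 9.67% at 24 h. From 12 h to 24 h the estimates of 24 of 24 mitosis genes were above 0, with a median of 0.11. Above 0 there were 20 of 53 for the replication genes and 5789 of all 11373 tested genes. In that comparison *Cenpf* and *Ect2* rose, by 0.30 ± 0.073 (adjusted p = 0.0249) and 0.22 ± 0.051 (adjusted p = 0.0194), against 1.97% of all tested genes. The other 22 mitosis genes did not pass. The 3 largest changes at 12 h were those of *Aurkb* (0.66), *Prc1* (0.59) and *Bub1* (0.58), and at 24 h those of *Aurkb* (0.70), *Nusap1* (0.68) and *Top2a* (0.68). Averaged over each list, log2 CPM relative to 0 h was 0.37 to 0.49 at 12 h and 0.55 to 0.61 at 24 h for the mitosis genes, groups that did not overlap, whereas for the replication genes the 2 times overlapped.

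**Figure D4:**
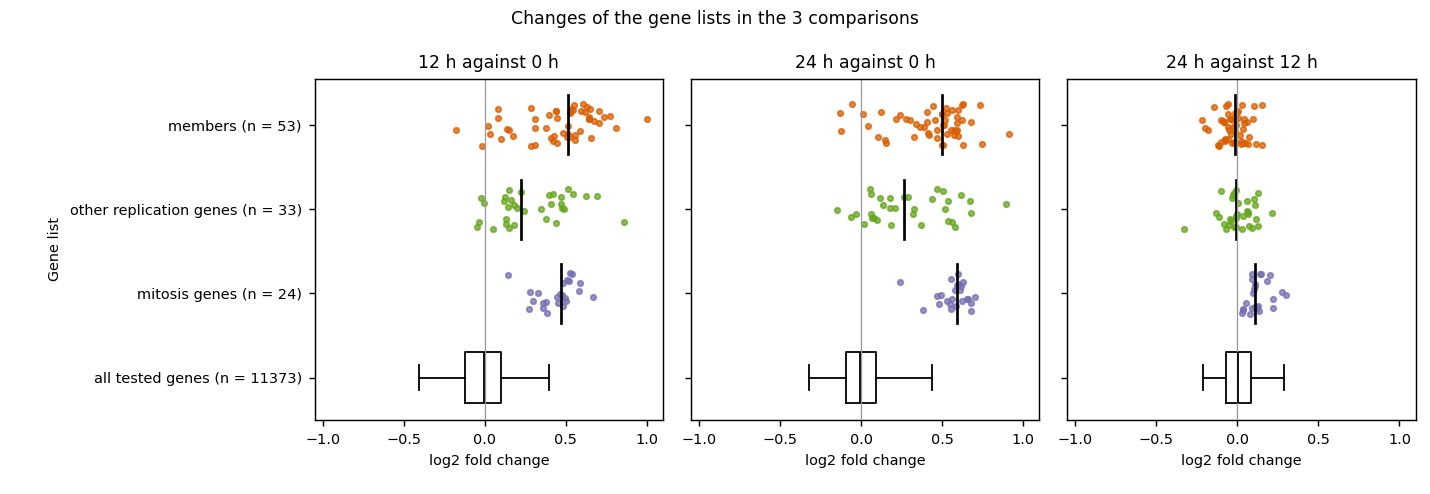
Each dot is 1 gene placed by its log2 fold change (x axis) in the 3 comparisons, for the 53 replication genes described here, the 33 other replication genes and the 24 mitosis genes; vertical bars are medians, and the boxes show all 11373 tested genes with whiskers at the 5th and 95th percentiles. The medians of the 53 genes are 0.51, 0.50 and -0.018 from left to right, and those of the mitosis genes 0.47, 0.59 and 0.11.

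Since E2F factors are known regulators of many of these genes, the 300 bases around each start site (250 before and 50 after, RefSeq, GRCm38.p6) were searched for 4 E2F words, TTTCCCGC, TTTCGCGC, TTTGCCGC and TTTGGCGC, on both strands. Of the 53 genes, 42 had an entry, and 17 of them held a word (40.5%), against 2.6% of all 27025 genes with an entry and 4.9% of the 9089 that were tested. Among the other motifs searched on both strands, the CCAAT box (CCAAT) was found in 59.5% of the 42, 41.1% of all and 43.8% of those tested. The CHR (TTTGAA or TTCGAA), an element of G2 and mitosis genes, was in 21.4%, 21.7% and 16.5%, and the E-box CACGTG in 19.0%, 8.09% and 12.1%. The words are short and can overlap each other, and a match is a description of the letters in the window.

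The windows below show where the words lie in genes of the licensing and helicase steps and at the fork, each as 30 bases on the strand of the gene with every matched word in capitals.
Orc1 (chr4:108579416-108579445, plus strand): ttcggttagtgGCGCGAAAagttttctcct
Cdc6 (chr11:98908002-98908031, plus strand): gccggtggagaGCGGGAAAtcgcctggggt
Cdt1 (chr8:122568035-122568064, plus strand): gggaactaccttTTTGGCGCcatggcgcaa
Mcm3 (chr1:20820275-20820304, minus strand): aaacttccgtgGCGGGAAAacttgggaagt
Mcm5 (chr8:75109347-75109376, plus strand): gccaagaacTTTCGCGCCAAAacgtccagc
Mcm6 (chr1:128359795-128359824, minus strand): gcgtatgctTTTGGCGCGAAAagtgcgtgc
Mcm7 (chr5:138171849-138171878, minus strand): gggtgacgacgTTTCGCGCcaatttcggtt
Pola1 (chrX:93632275-93632304, minus strand): gtcatcacaggGCGCCAAAtgcactcccgc
Rfc3 (chr5:151651190-151651219, minus strand): cTTTCGCGCtcGCGGGAAAactctactgtc
Lig1 (chr7:13278841-13278870, plus strand): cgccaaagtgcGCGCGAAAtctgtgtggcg
Clspn (chr4:126556990-126557019, plus strand): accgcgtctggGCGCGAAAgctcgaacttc

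In *Mcm5* and *Mcm6* a pair of words on opposite strands overlaps to make a run of 12 capitals, which in *Mcm5* ends 142 bases before the start site and in *Mcm6* ends 99 bases before it. In *Orc1* the word ends 20 bases before the start, and in *Clspn* and *Lig1* it begins 22 and 27 bases after it. The genes shown above all rose at both times, but they are a selection from the 17 with a word. *Gins3*, *Pold1*, *Pole2* and *Mcm8* also held a word and are not shown. Of these, *Gins3* did not pass at 24 h (adjusted p = 0.0636). In *Mcm3*, *Mcm6* and *Mcm7* a further match is not shown. A further 2 genes of the list held a word and passed the test at neither time, and their windows are shown for contrast.
Orc3 (chr4:34614965-34614994, minus strand): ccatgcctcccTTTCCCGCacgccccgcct
Pold3 (chr7:100121467-100121496, minus strand): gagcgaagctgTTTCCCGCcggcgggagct

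*Orc3* changed by 0.022 ± 0.068 at 12 h and *Pold3* by 0.15 ± 0.055 (adjusted p = 0.855 and 0.0590). Of the 17 genes with a word, 15 rose at 12 h with a median change of 0.54 and 14 rose at 24 h with a median of 0.50. Of the 25 without one, 18 rose at 12 h with a median of 0.41 and 19 at 24 h with a median of 0.50. Genes that rose at both times with no word in the window, chosen after their values were seen, included *Pcna*, *Fen1*, *Ticrr* and *Prim1*, and *Rpa1*, the gene that fell, held none. The 11 genes without an entry were *Gmnn*, *Mcm4*, *Recql4*, *Gins1*, *Gins2*, *Gins4*, *Prim2*, *Pole*, *Rfc2*, *Dscc1* and *Tipin*.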

How the data were processed

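Libraries of mRNA (TruSeq) were read as paired ends of 150 bp. Per the labels and the study's methods, the authors trimmed reads with Cutadapt, aligned them to GRCm38.p6 with STAR and GENCODE vM24 and counted them per protein-coding gene with featureCounts, and deposited raw counts with no normalization. The strand setting and the treatment of reads that map to several places were not given in the sources used here. How overlap with another gene affected the counts is therefore not known.

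Counts were analysed with edgeR 4.0.16 in R 4.3.3: filterByExpr by time point, TMM scaling, 1 quasi-likelihood fit of all 9 libraries, two-sided tests and Benjamini-Hochberg adjustment over the 11373 tested genes. Passing means an adjusted p of at most 0.05, and the 1.5-fold rule is that of the study. DESeq2 1.42.0, other scalings, no filter, a replicate block, pairwise fits and leaving out each library were the alternatives. The pipeline was tested on simulated data. Exonic lengths and overlaps came from GENCODE vM21 on the same build, and a length counts each base of any annotated exon of the gene once. Replicates of a time differed by more than counting noise (chi-square per degree of freedom 3.40 to 10.3), so each counts once. The members and the lists beside them were chosen with earlier results of these data known. Genes named with values are a list of 31 written down with the design, the highest and lowest of each step, and any that fell or passed between 24 h and 12 h. The rest were named after their values were seen. Some marker genes are not reported here.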

Additional observations from a re-analysis of the deposited data

How the results depend on the processing

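With 3 libraries per time, calls near 1.5-fold or near the adjusted p threshold turned on single libraries, and the lowest count of any of the 53 genes was 52, for *Dscc1*. Leaving out 1 library in turn, the number that rose was 41 to 44 at 12 h (median 0.45 to 0.55) and 39 to 46 at 24 h (median 0.44 to 0.53), and the number past 1.5-fold was 8 to 20 at 12 h and 3 to 20 at 24 h, the lowest both times without 0 h replicate 1. The number that fell was 0 to 1 at 12 h, with 0 without 0 h replicate 3, and 0 to 1 at 24 h. From 12 h to 24 h it was 0 to 1 higher and 0 to 1 lower. The test for a change beyond 1.5-fold gave 0 at 12 h and 0 at 24 h, since it asks more than a passing point estimate. Without the filter on low counts 1 gene (*Rpa1*) fell at 24 h, and from 12 h to 24 h 2 (*Cdt1*, *Dbf4*) were higher and 1 (*Mcm3*) lower, and with only the 2 time points compared 1 (*Rpa1*) fell at 24 h. The cause was not tested. Small changes turned sign in *Orc3* (12 h, -0.0051 to 0.064 and 24 h, -0.10 to 0.034 over the left-out libraries) and *Orc4* (24 h, -0.026 to 0.089), none of which passed. Of 110 changes of single genes, 88 kept direction and side of the threshold under every alternative. The same replicate number showed no clear pairing. The correlation of deviations was -0.074 to 0.13 over 9 same-number pairs, and 1 was above 0.1. Pairs of different number gave -0.13 to 0.12. With 3 libraries per time this check could miss a weak pairing. With the replicate block 45 rose and 1 fell at 12 h (*Cdc7* also passed, 0.29, adjusted p = 0.0404), 17 were past 1.5-fold, and at 24 h 44 rose, 0 fell and 14 were past 1.5-fold. The choice of scaling (TMM, RLE, total counts) moved the median of all genes by less than 0.1, but scaling to total counts ended the calls of *Recql4* at 12 h and *Cdc7* at 24 h and left 15 genes past 1.5-fold at 12 h, without *Gins1* and *Timeless*.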
